A study of Mus musculus with 10 samples.

Results

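A set of 10 immediate early genes is described here in mouse proximal jejunum: Fos, Fosb, Jun, Junb, Atf3, Egr1, Nr4a1, Ier2, Ier3 and Dusp1. They were taken by gene symbol from the 24368 genes of the deposited expression table, and 10 of 10 were found. RNA-seq had been made from 5 mice labelled HuR cKO, with the RNA-binding protein HuR (gene Elavl1) conditionally deleted in the intestinal epithelium, and from 5 wild-type (WT) littermates. The sources used here do not give the Cre driver, the deleted exons, the strain, the age, the sex or the feeding state. The libraries are numbered 1 to 5 in cKO and 1, 3, 4, 5 and 6 in WT, as the labels have them. All values are normalised reads, that is read counts divided by a size factor of the library.

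Immediate early genes are transcribed within minutes of a stimulus from factors already present in the cell, without new protein synthesis. Growth factors, stress and calcium reach them through MAP kinases and through transcription factors such as SRF with its ternary complex partners, and CREB, which binds cyclic AMP response elements (CREs). Their mRNAs are mostly short-lived, and many carry AU-rich elements in the 3' untranslated region, the kind of element that HuR binds and that decay factors such as ZFP36 also bind. Early genes are also known to respond to feeding, to injury and to the handling of tissue.

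Promoter sequences were looked up for the 10 genes in RefSeq (build GRCm38.p6), as windows of 250 bases before to 50 bases after the annotated start, and 8 of 10 had one. The windows of Fos at chr12:85473640-85473939 (+ strand), Fosb at chr7:19309996-19310295 (- strand), Dusp1 at chr17:26508423-26508722 (- strand) and Nr4a1 at chr15:101266596-101266895 (+ strand) are shown because they carry the CRE letters in different forms, and because Fosb and Dusp1 varied together between libraries while Nr4a1 varied least like the others. Each reads 5' to 3' on the strand of the gene. Capitals mark the CRE (TGACGTCA), its core TGACG on either strand (CGTCA on the other) and the TATA box (TATAAA).
Fos: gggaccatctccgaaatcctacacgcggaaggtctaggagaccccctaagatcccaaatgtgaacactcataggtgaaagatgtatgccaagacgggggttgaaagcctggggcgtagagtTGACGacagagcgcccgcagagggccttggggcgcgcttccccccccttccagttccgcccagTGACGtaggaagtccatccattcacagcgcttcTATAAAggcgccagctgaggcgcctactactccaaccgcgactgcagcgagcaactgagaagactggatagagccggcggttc
Fosb: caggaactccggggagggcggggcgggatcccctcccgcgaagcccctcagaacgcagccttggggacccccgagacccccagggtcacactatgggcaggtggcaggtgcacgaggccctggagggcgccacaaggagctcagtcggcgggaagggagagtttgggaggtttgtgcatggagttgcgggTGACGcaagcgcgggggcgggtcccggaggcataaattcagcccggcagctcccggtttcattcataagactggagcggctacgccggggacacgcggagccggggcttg
Dusp1: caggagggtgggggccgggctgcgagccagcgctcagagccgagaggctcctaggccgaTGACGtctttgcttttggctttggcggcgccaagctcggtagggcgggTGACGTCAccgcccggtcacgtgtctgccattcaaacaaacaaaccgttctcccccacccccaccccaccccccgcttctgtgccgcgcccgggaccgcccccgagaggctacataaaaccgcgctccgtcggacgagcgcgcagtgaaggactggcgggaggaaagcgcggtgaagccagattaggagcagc
Nr4a1: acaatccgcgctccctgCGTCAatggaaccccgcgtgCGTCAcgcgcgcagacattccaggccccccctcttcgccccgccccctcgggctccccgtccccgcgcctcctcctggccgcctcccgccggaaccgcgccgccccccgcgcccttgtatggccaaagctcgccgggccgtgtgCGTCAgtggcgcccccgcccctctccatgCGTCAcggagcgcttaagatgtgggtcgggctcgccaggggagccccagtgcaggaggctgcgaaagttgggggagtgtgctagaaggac
Among 32851 such windows of all genes, searched on both strands, the full CRE stood in 1.79%, and among the 8 it stood in Dusp1, starting 143 bases before the start. The core TGACG, which is part of the full CRE, was found in 20.8% of all windows and in 6 of the 8 (Atf3, Dusp1, Fos, Fosb, Junb and Nr4a1). Fos held it at 129 and 66 bases before the start, Fosb at 60, and Nr4a1 on the other strand at 233, 213, 69 and 40. The TATA box letters were in 13.6% of all windows and in Fos and Junb. They began 33 bases before the start in Fos and at the annotated start itself in Junb. The GC box GGGCGG was present in 35.7% of all windows and in 7 of the 8, Junb being without it. The AP-1 site TGANTCA was in 7.81% of all windows and in 0 of the 8, and the CArG box bound by SRF was in 1.63% and in 0 of the 8. These are matches of letters within 300 bases and say nothing of binding. Egr1 and Ier2 had no window, and sites more than 250 bases before the start were not searched in any gene. A count of 0 of the 8 therefore does not mean that a gene lacks the site.

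Reads per library ran from 16063987 to 18927440, and every one of the 10 genes had between 60 and 13380 reads in each library. Elavl1, the targeted gene, averaged 633 ± 60.6 normalised reads in cKO and 666 ± 36.0 in WT (SD, n = 5 each), with a log2 fold change of -0.08 (limma adjusted p = 0.798), so its level over the whole gene did not tell the labels apart. The names cKO and WT therefore follow the labels throughout. The sample was bulk tissue: enterocyte markers such as Fabp1 and Apoa1 were abundant, smooth muscle markers summed to 27186 to 67076 normalised reads in cKO and 31070 to 52923 in WT, and the ileal gene Fabp6 was at most 3.81 in cKO and 0 in every WT library. In such tissue fewer cells of a type and less RNA per cell cannot be told apart. Libraries cKO 3 and cKO 5 stood apart in the clock gene Per2, with 12.7 and 16.0 normalised reads, against 342 to 526 in the other cKO libraries and 529 to 749 in WT.

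Of the 10 genes, 0 passed an adjusted p of 0.05 between the genotypes, against 1.32% of the 14062 genes tested (limma, adjusted over all of them). At an unadjusted p under 0.05 limma called 2 of 10, Fos and Ier3, against 18.6% of all genes. On recovered reads, edgeR and DESeq2 each called 0 of 10 by the adjusted p, against 1.29% and 5.33% of all genes, and 1 of 10, Fos, by the unadjusted p, against 19.0% and 20.0%. The ranges of cKO and WT overlapped for all 10 genes, while 4.87% of the 14062 genes had ranges apart. For the 10, the log2 fold changes (cKO over WT, computed on log2(value + 1)) had a median of -0.18, with 3 above 0 and 7 below, beside 0.01 over all genes tested.

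**Figure D1:**
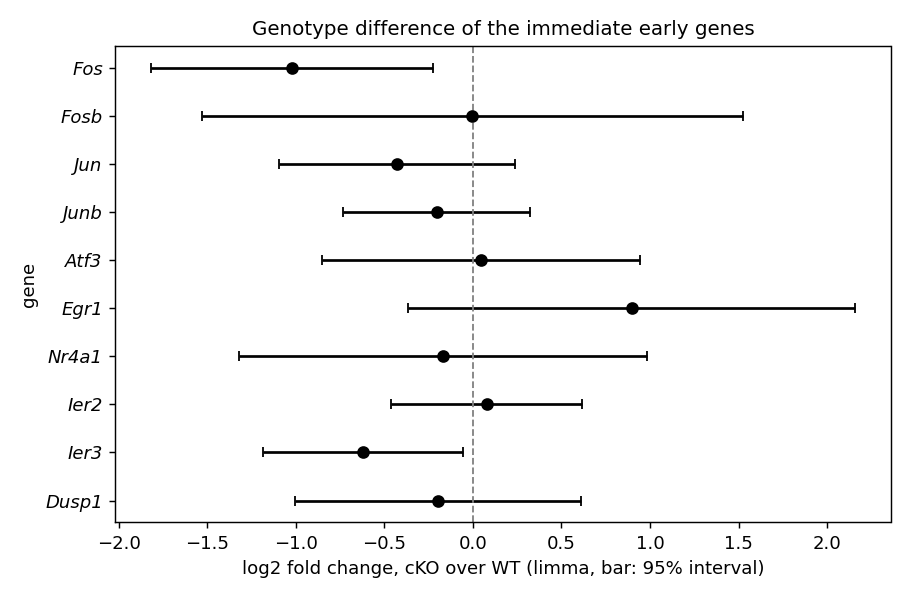
Log2 fold change of each gene, cKO over WT, from limma on log2(value + 1), with bars for the 95% interval (n = 5 libraries each). Fos at -1.02 and Ier3 at -0.62 have intervals that leave out 0 before adjustment, and Fosb has the widest interval.

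The AP-1 group holds the subunits of the AP-1 transcription factor, in which a FOS family protein pairs with a JUN family protein, and ATF3, a stress-induced partner of JUN. Fos, the founding subunit gene (chr12:85473890-85477273, + strand, mm10), had 4868, 8464, 1866, 8541 and 3926 normalised reads in cKO 1 to 5, against 10949, 6600, 8884, 9561 and 14489 in WT 1, 3, 4, 5 and 6. In all, 3 cKO libraries lay below the lowest WT library, and the other two lay inside the lower part of the WT range. Fos averaged 5533 ± 2920 in cKO and 10096 ± 2916 in WT (SD, n = 5 each), a fold of 0.493 with a 95% interval of 0.283 to 0.856. The log2 fold change of -1.02 (SE 0.37) had an unadjusted p of 0.0159 and an adjusted p of 0.168 in limma, and permuting the 10 values gave an exact two-sided p of 0.0476, where 0.00794 is the smallest p that 5 against 5 allows. Without cKO 3 and cKO 5 the log2 fold change was -0.47 (limma adjusted p = 0.481). The authors' deposited table gives Fos a log2 fold change of -0.88 and an adjusted p of 0.0595. Whether the authors compared only these 10 libraries was not checked.

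Fosb (chr7:19302696-19310051, - strand), a FOS relative, had 1028, 4051, 1516, 4789 and 3111 normalised reads in cKO 1 to 5, against 4586, 703, 1271, 4067 and 5709 in WT 1, 3, 4, 5 and 6. Both groups held low and high libraries, the lowest being WT 3 and the highest WT 6. The means were 2899 ± 1609 in cKO and 3267 ± 2174 in WT (SD, n = 5 each), and the 95% interval of the log2 fold change, -1.53 to 1.53, was centred near 0 (limma adjusted p = 0.999). Its 8.12-fold range over the 10 libraries was the widest of the 10 genes. Jun (chr4:95049034-95052222, - strand), the main FOS partner, had 1433, 3792, 2197, 3778 and 3263 in cKO 1 to 5, against 4355, 2491, 2432, 3866 and 6396 in WT 1, 3, 4, 5 and 6. The libraries cKO 1 and cKO 3 were below every WT library, and the log2 fold change was -0.43 with an interval of -1.10 to 0.24 (limma adjusted p = 0.477).

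Junb (chr8:84974484-84978718, - strand), a JUN family member that can replace JUN in AP-1, varied least, 2.53-fold over the 10 libraries. It had 1838, 2923, 1793, 4528 and 2644 normalised reads in cKO 1 to 5, against 2202, 2801, 2622, 3404 and 4236 in WT 1, 3, 4, 5 and 6. Here cKO 4 was the highest library and cKO 1 and cKO 3 the lowest, and the log2 fold change was -0.20 (95% interval -0.73 to 0.32, limma adjusted p = 0.695). Atf3 (chr1:191170296-191218039, - strand) had 3012, 9035, 4776, 8258 and 6095 in cKO 1 to 5, against 8069, 2450, 3746, 6559 and 11479 in WT 1, 3, 4, 5 and 6. Its group means were close, at 6235 ± 2473 in cKO and 6461 ± 3579 in WT (SD, n = 5 each), with a log2 fold change of 0.05 (95% interval -0.85 to 0.94, limma adjusted p = 0.963). In the annotation the exons of Jun share 232 bases with the antisense gene Junos, and those of Junb share 173 bases with Prdx2 on the opposite strand. No source used here gives the strand setting of the counting, so reads of these bases cannot be told apart, where Junos averaged 5.90 normalised reads and Prdx2, at a level near that of Junb, 2625.

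**Figure D2:**
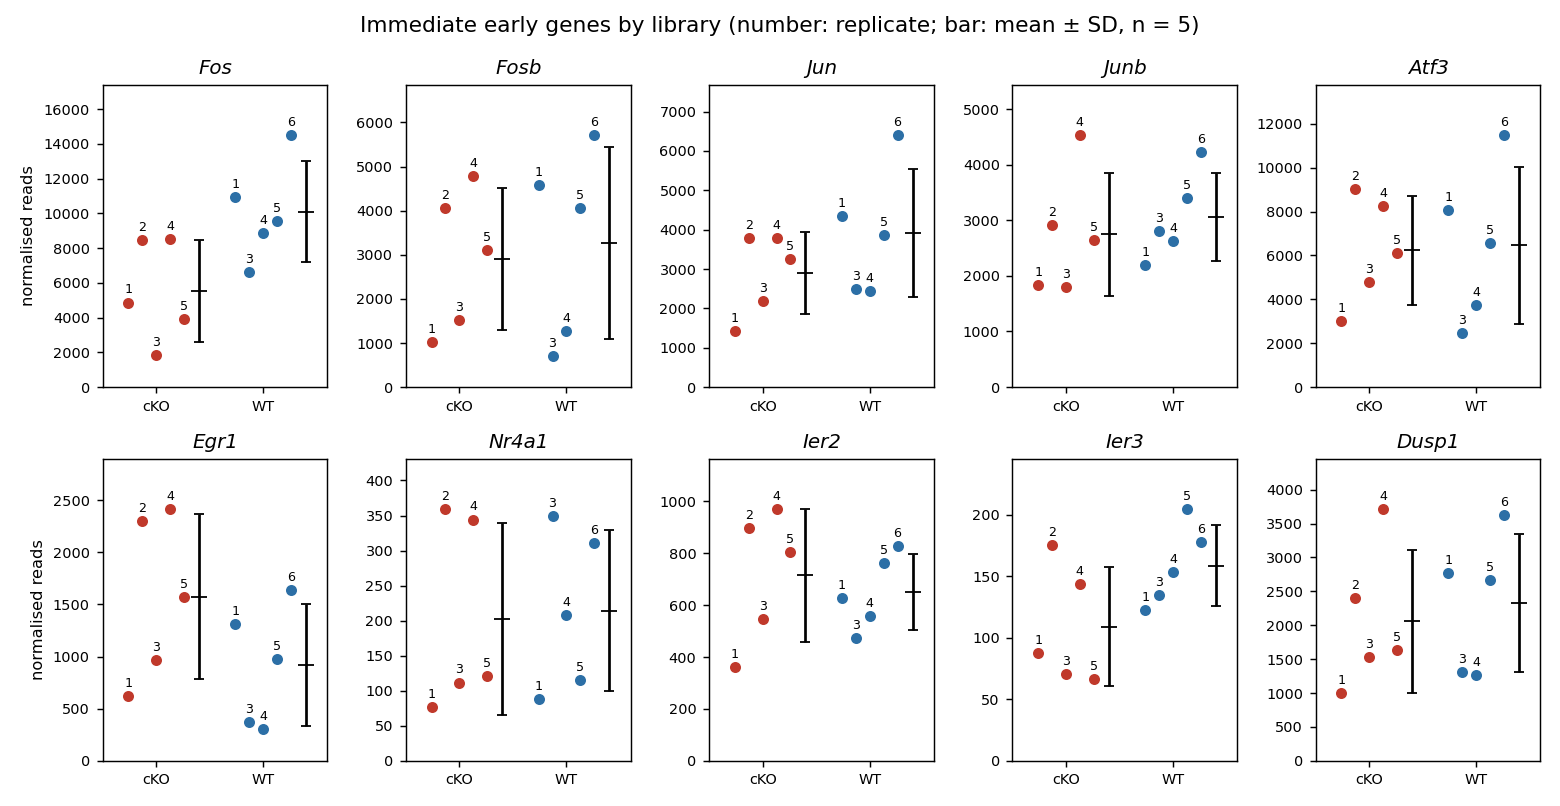
Normalised reads of the 10 genes by library, with cKO left of WT, a number for the replicate of each point, and bars for mean ± SD (n = 5 each, each panel with its own axis from 0). The ranges of cKO and WT overlap in every panel, and the 3 lowest Fos values are from cKO 3, cKO 5 and cKO 1.

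Egr1 (chromosome 18) encodes a zinc-finger transcription factor that is switched on by MAP kinase signalling through SRF. It had 619, 2304, 965, 2414 and 1575 normalised reads in cKO 1 to 5, against 1313, 370, 301, 973 and 1638 in WT 1, 3, 4, 5 and 6. The libraries cKO 2 and cKO 4 were above every WT library, and WT 3 and WT 4 were below every cKO library. Egr1 averaged 1575 ± 794 in cKO and 919 ± 583 in WT (SD, n = 5 each), a fold of 1.86 with a 95% interval of 0.777 to 4.46, and did not pass (log2 fold change 0.90, limma adjusted p = 0.423, exact two-sided permutation p = 0.190). In the authors' deposited table, where the set of libraries compared may differ, Egr1 has a log2 fold change of 0.81 and an adjusted p of 0.349.

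Nr4a1 (chr15:101254269-101274795, + strand) encodes the orphan nuclear receptor NUR77 and was, with Ier3, among the low members. It had 76.3, 359, 112, 344 and 121 normalised reads in cKO 1 to 5, against 88.0, 349, 209, 116 and 311 in WT 1, 3, 4, 5 and 6. Low and high libraries were present in both groups. Of the WT libraries, WT 3 and WT 6 were high in Nr4a1, and of these WT 6 was high and WT 3 low in Fosb. The log2 fold change was -0.17 (95% interval -1.32 to 0.98, limma adjusted p = 0.893), and it turned to 0.17 without cKO 3 and cKO 5.

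The last 3 genes encode early proteins of other kinds. Ier2 (chr8:84661331-84662852, - strand), a short nuclear protein gene, had 360, 898, 545, 970 and 804 normalised reads in cKO 1 to 5, against 629, 472, 558, 763 and 828 in WT 1, 3, 4, 5 and 6. Here cKO 2 and cKO 4 lay above every WT library and cKO 1 lay below, and the log2 fold change was 0.08 (95% interval -0.46 to 0.62, limma adjusted p = 0.897). Ier3 (chr17:35821684-35822923, + strand), also called IEX-1 and known for effects on cell survival and on ERK signalling, had 87.7, 176, 70.5, 144 and 66.5 in cKO 1 to 5, against 123, 135, 153, 205 and 178 in WT 1, 3, 4, 5 and 6. The libraries cKO 1, cKO 3 and cKO 5 were below every WT library, the same 3 as for Fos. Ier3 averaged 109 ± 48.4 in cKO and 159 ± 33.0 in WT (SD, n = 5 each), a fold of 0.650 with a 95% interval of 0.439 to 0.961. The log2 fold change of -0.62 had an unadjusted p of 0.0328 and an adjusted p of 0.225 in limma, and an exact two-sided permutation p of 0.0952. Without cKO 3 and cKO 5 it was -0.26 (limma adjusted p = 0.705).

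Dusp1 (chr17:26505590-26508519, - strand) encodes a phosphatase that switches off MAP kinases, and so closes a loop on the pathway that induces it. It had 998, 2406, 1531, 3714 and 1642 normalised reads in cKO 1 to 5, against 2770, 1309, 1263, 2670 and 3625 in WT 1, 3, 4, 5 and 6. The highest values, in cKO 4 and WT 6, were nearly equal, and only cKO 1 lay below the WT range. The log2 fold change was -0.20 (95% interval -1.0 to 0.61, limma adjusted p = 0.812).

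Levels of different genes were compared per kilobase of the deposited gene length. In cKO the order of the mean normalised reads per kilobase was Atf3 (2895), Fos (2352), Junb (1193), Jun (907), Dusp1 (763), Ier2 (470), Fosb (464), Egr1 (351), Ier3 (96.2) and Nr4a1 (57.7). In WT it was Fos (4293), Atf3 (2999), Junb (1327), Jun (1226), Dusp1 (863), Fosb (523), Ier2 (427), Egr1 (205), Ier3 (140) and Nr4a1 (61.1). The order was alike in both genotypes apart from the swap of Fos with Atf3 and of Fosb with Ier2. Library ranges of neighbours in the order overlapped in each group, except for Ier3 and Nr4a1 in WT, so by their ranges across libraries these neighbours did not separate. Within a library the order was firmer: in all 5 cKO libraries Fos lay above Junb, Junb above Jun, Dusp1 above Ier2, Fosb above Egr1, Egr1 above Ier3 and Ier3 above Nr4a1. In all 5 WT libraries Fos lay above Atf3, Jun above Dusp1, Dusp1 above Fosb, Ier2 above Egr1 and Ier3 above Nr4a1. Fos and Atf3 mRNA were among the abundant transcripts of the tissue, with Fos at percentile 97.9 of genes per kilobase and Nr4a1 at percentile 55.8.

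Most of the variation in these genes lay between mice of one genotype. Among the genes with a mean of 100 or more, the SD within genotype of the 10 genes stood between percentile 85.2 (Junb) and percentile 99.3 (Fosb). Libraries were high or low for many of the 10 at once. All 10 genes were above their mean over the 10 libraries in cKO 2, cKO 4 and WT 6, with median deviations of 0.47, 0.64 and 0.84 on the log2 scale. In cKO 1 and cKO 3, 0 of 10 were above it, with median deviations of -0.89 and -0.57. The libraries cKO 5, WT 1, WT 3, WT 4 and WT 5 had 5, 6, 3, 3 and 8 genes above the mean. The median deviation of all genes tested stayed between -0.01 and 0.02 in every library.

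**Figure D3:**
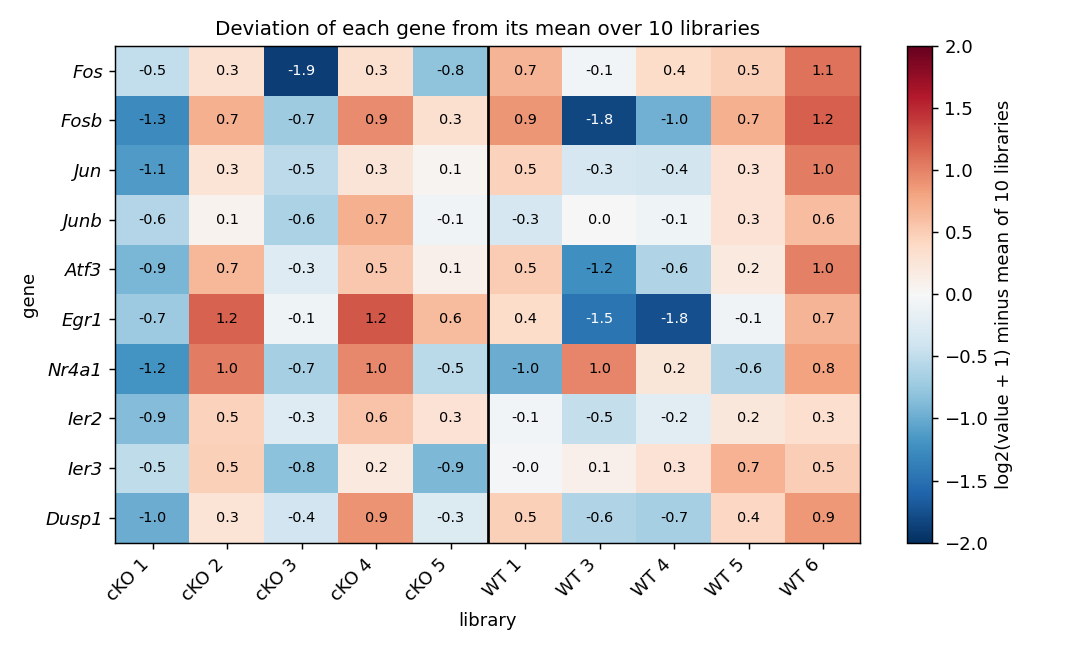
Log2(value + 1) of each gene in each library minus its mean over the 10 libraries, in log2 units, with cKO left of the line and WT right of it. The columns cKO 2, cKO 4 and WT 6 are above 0 for all 10 genes and the columns cKO 1 and cKO 3 are below 0 for all 10.

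After the mean of each genotype was taken off, the 45 pairs among the 10 genes had a median Pearson r of 0.64 over the 10 libraries. All 45 were above 0 and 34 (75.6%) were above 0.5, beside a median of 0.02 and 16.5% above 0.5 among all pairs of genes with a mean of 100 or more. The points of each correlation share libraries, depth and size factor, so these values are a description. Without cKO 1 and cKO 3, whose median deviations lie farthest from the median over the 10 libraries, the median r was 0.66, with 40 pairs above 0 and a lowest r of -0.32. Within cKO alone the median r was 0.87, and within WT alone it was 0.70 (n = 5 each).

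Fosb, Jun, Atf3, Egr1, Ier2 and Dusp1 made a tight set, chosen here after their values were seen: their 15 pairs had r between 0.84 and 0.98, the highest being Fosb with Atf3. Fos and Ier3 stood somewhat outside it, with r of 0.76 to each other. Nr4a1 was the least alike, at r of 0.13 to 0.49 with the 6 genes of that set. Its likeness differed by genotype: with those 6 genes r was 0.86 to 0.93 in cKO and -0.51 to -0.16 in WT (n = 5 each). A difference by genotype was not particular to Nr4a1, but a change of sign with those 6 genes was seen in Nr4a1 alone. With the same 6 genes Fos had r of 0.50 to 0.64 in cKO and 0.83 to 0.96 in WT. Junb, also outside the set, had 0.81 to 0.93 in cKO and 0.37 to 0.68 in WT. These differences were not tested. Nr4a1 was high in WT 3, the library with the lowest Fosb and Atf3.

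**Figure D4:**
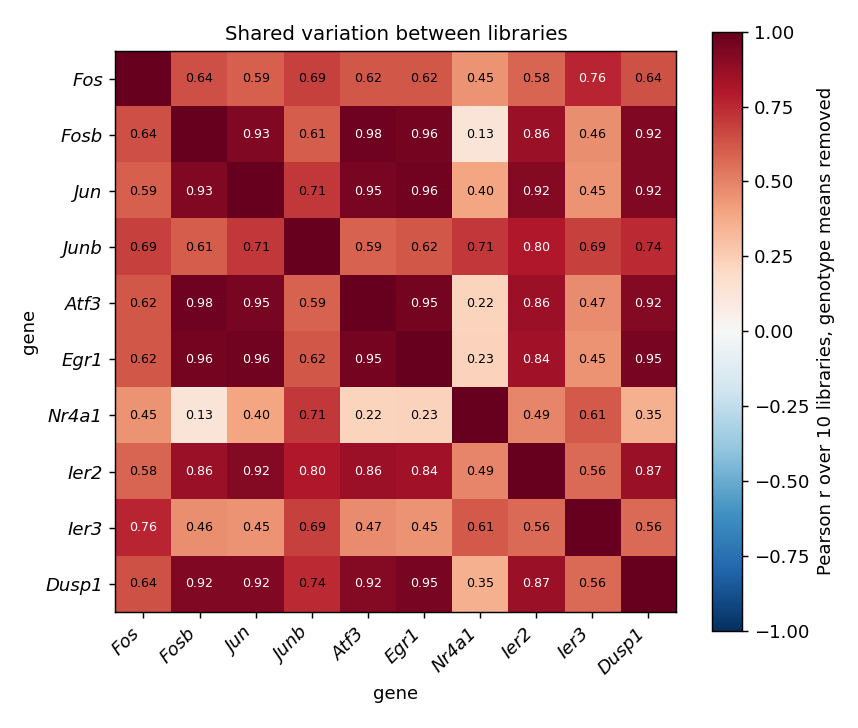
Pearson r between each pair of the 10 genes over 10 libraries, after the genotype mean of each gene was taken off (diagonal left without numbers). Pairs among Fosb, Jun, Atf3, Egr1, Ier2 and Dusp1 lie at 0.84 to 0.98, and the row of Nr4a1 holds the lowest values, down to 0.13 with Fosb.

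The proportions of the genes to one another were also compared. Of the 45 ratios between the 10 genes, 6 (13.3%) had cKO and WT ranges that did not overlap, beside 6.15% of the 36726735 ratios among all genes with a mean of 100 or more. The 45 ratios are not independent: 4 of the 6 involved Egr1 and 3 involved Jun. Jun over Egr1 was 1.56 to 2.31 in cKO and 3.32 to 8.08 in WT. Atf3 over Egr1 was 3.42 to 4.95 in cKO and 6.14 to 12.4 in WT, and Fos over Egr1 was 1.93 to 7.86 in cKO and 8.34 to 29.5 in WT. In these 3 ratios every cKO library had more Egr1 for its level of Jun, Atf3 or Fos than any WT library. The fourth, Egr1 over Dusp1, was 0.620 to 0.959 in cKO and 0.238 to 0.474 in WT. The remaining ratios were Jun over Atf3, at 0.420 to 0.535 in cKO and 0.540 to 1.02 in WT, and Jun over Ier2, at 3.89 to 4.22 in cKO and 4.36 to 7.72 in WT.

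**Figure D5:**
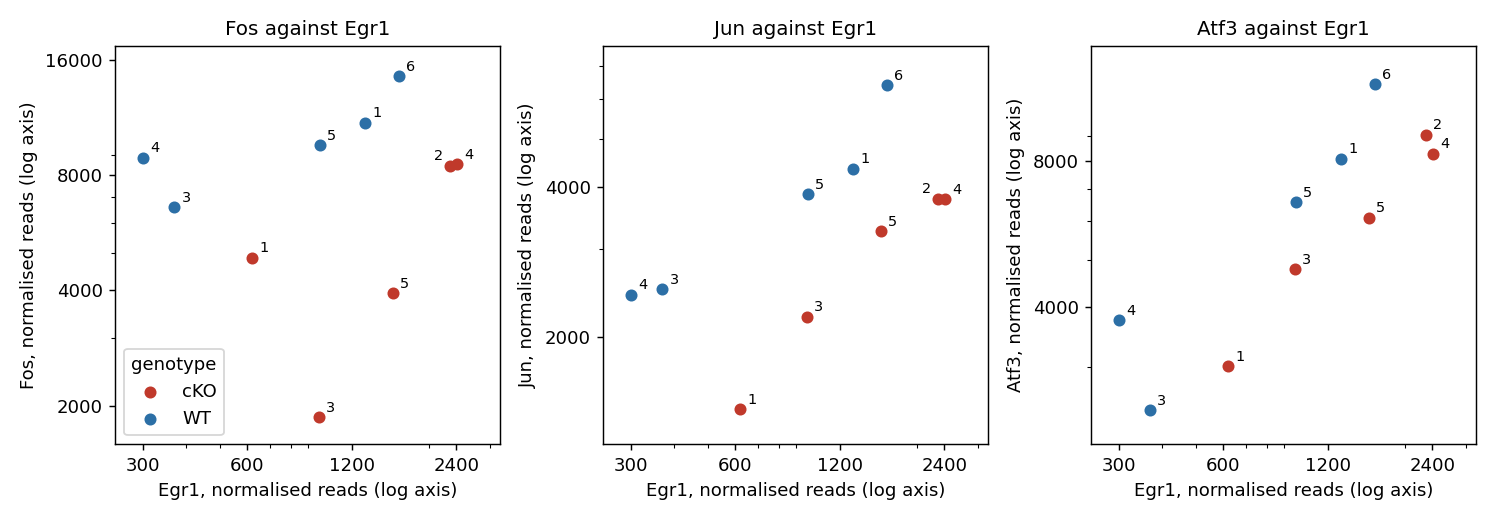
Fos, Jun and Atf3 plotted against Egr1 in normalised reads (log axes), each point 1 library with its replicate number, cKO in red and WT in blue. At a like level of Egr1 the cKO points lie below the WT points, as in the ratio of Jun to Egr1 of 1.56 to 2.31 in cKO and 3.32 to 8.08 in WT.

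Against the mean of the other 9 genes on the log2 scale, Egr1 stood at 0.10 ± 0.25 in cKO and -1.07 ± 0.70 in WT (SD, n = 5 each), a difference of 1.18, which was 1.09 without cKO 3 and cKO 5. The WT value rested most on WT 4 and WT 3, at -2.02 and -1.57, and WT 1, at -0.30, was inside the cKO range. On the same measure Fos stood at 2.09 ± 0.67 in cKO and 3.04 ± 0.23 in WT, a difference of -0.95. That difference was -0.55 without cKO 3 and cKO 5, and the value of cKO 1, 2.99, lay inside the WT range of 2.81 to 3.40.

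Some other measures moved with the level of these genes. Of the crypt and stem cell markers Olfm4, Lgr5 and Mki67 (3 of 3 measured, none at 0), the sum, most of it Olfm4, was 3751, 3132 and 1986 normalised reads in cKO 1, 3 and 5, against 763 and 834 in cKO 2 and 4, and 734 to 1234 in WT. Over the 10 libraries r with the mean deviation of the 10 genes was -0.65 for Olfm4, -0.68 for Mki67 and 0.00045 for Lgr5, which at 61.0, 31.7 and 16.8 in cKO 1, 3 and 5, against 41.8 and 30.9 in cKO 2 and 4, did not follow the split. The 3 Paneth cell markers had a median r of -0.65 and the 5 T cell markers one of -0.58. The T cell markers did not move as one, with Cd3g at -0.77, Cd3e at -0.28 and Cd4 at 0.33. The 10 enterocyte markers had a median r of 0.37, from -0.37 for Sis to 0.77 for Vil1. The Paneth sum was 20477, 9343, 3044, 2392 and 9182 in cKO 1 to 5, and 1566 to 14046 in WT, and the T cell sum 965 to 2124 in cKO and 1240 to 1769 in WT. The mitochondrial share of reads was 9.48%, 6.09% and 4.74% in cKO 1, 3 and 5, and 3.09% and 2.80% in cKO 2 and 4. In WT it was 2.69% to 5.88%. Its higher WT values, 5.73% in WT 1 and 5.88% in WT 3, stood beside median deviations of 0.42 and -0.40 for the 10 genes. The same split of cKO 1, 3 and 5 from cKO 2 and 4 was seen in all 10 genes, each lower in cKO 1, 3 and 5. The part of cell makeup and of RNA quality in the levels of the 10 genes was not tested.

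Endothelial markers (5 of 5 measured, Cdh5 among them, none at 0) summed to 796 to 1470 normalised reads in cKO and 353 to 526 in WT, and fibroblast markers (6 of 6, none at 0) to 6211 to 9835 in cKO and 4847 to 6066 in WT. Both sums were higher in every cKO library than in any WT library. Most of the endothelial sum was Lyve1, a lymphatic vessel gene, which rose to 856 ± 220.03 in cKO, against 274 ± 74.0 in WT (SD, n = 5 each, limma adjusted p = 0.0027). The other endothelial markers overlapped between the groups, and Pecam1 in cKO 4, at 44.8, was below every WT library. Of the fibroblast markers 2 of 6 rose, Col3a1 (log2 fold change 0.75, limma adjusted p = 0.0357) and Col1a1 (1.02, adjusted p = 0.0426), and of the enteroendocrine markers 1 of 3, Chga (0.80, adjusted p = 0.0410), against 0.441% of all genes called higher. In limma the Col3a1 call was lost without cKO 3 and without WT 1, 3, 4 or 5 (adjusted p 0.0787 to 0.106). The Col1a1 call was lost without cKO 3, cKO 5 or WT 1, 3, 4 or 5 (adjusted p 0.0574 to 0.120), and the Chga call without cKO 3, cKO 5 or any 1 of the WT libraries (adjusted p 0.0638 to 0.111). The part of these cells in the difference of Egr1 was not tested, and r with the 10 genes had a median of -0.28 over the endothelial and 0.28 over the fibroblast markers. Heat shock genes summed to 33224 to 84696 in cKO and 31125 to 48272 in WT, and their median r with the 10 genes was 0.08. The highest sum was in cKO 1, the library with the lowest Fosb of cKO. The lowest sum was in WT 3, the library with the lowest Fosb of all 10.

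Related early genes and the pathway around them were also examined, in lists chosen with earlier results of these data known. Among 16 other early transcription factors tested, 1 was called higher and 1 lower, against 0.441% and 0.882% of all genes, and the list's median fold change was -0.05 in log2. Srf, the factor that binds the CArG boxes of many early genes, rose 2.00-fold: it had 964, 1287, 1080, 1394 and 1162 normalised reads in cKO 1 to 5, against 453, 457, 589, 740 and 752 in WT 1, 3, 4, 5 and 6. No cKO library overlapped the WT range, and the log2 fold change was 1.00 (limma adjusted p = 0.0196). The limma adjusted p was 0.0658 without cKO 3 and cKO 5, 0.0544 without WT 3 and 0.0599 without WT 4.

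Klf6, an early zinc-finger factor, fell to 5657 ± 1396 normalised reads in cKO, against 11569 ± 3367 in WT (SD, n = 5 each), a log2 fold change of -1.02 with a limma adjusted p of 0.0400. The 5 cKO libraries had 4125 to 7310 and the WT libraries 8357 to 16179, with no overlap. That call was lost in 11 of 19 alternative fits, among them those without cKO 1, cKO 3, cKO 5 or any 1 of the WT libraries (limma adjusted p 0.0557 to 0.0987). Among 30 other early response proteins 0 were called higher and 1 lower, against 0.441% and 0.882% of all genes. Sgk1, a kinase gene induced by serum, glucocorticoids and salt balance, fell to 3301 ± 1501 in cKO, against 9179.5 ± 1921 in WT (log2 fold change -1.63, limma adjusted p = 0.0425). It had 3244, 4733, 1008, 4559 and 2960 in cKO 1 to 5, against 9566, 10192, 8202, 6464 and 11473 in WT 1, 3, 4, 5 and 6, and its lowest value was in cKO 3, as for Fos. Its call was lost in 10 of 19 alternative fits, among them those without cKO 1, cKO 5 or any 1 of the WT libraries (limma adjusted p 0.0595 to 0.113). Both Klf6 and Sgk1 kept their direction in all 19.

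In the other lists of early genes and their pathway no gene passed apart from Srf, which is counted again among the promoter-binding factors. Of these, 1 of 14 was called higher and 0 lower, against 0.441% and 0.882% of all genes. The 14 other AP-1 family genes had 0 calls and a median log2 fold change of 0.03, with Mafg at -0.49 (limma adjusted p = 0.147) and Jdp2, a repressor that binds AP-1 sites, at 0.83 (0.186). Of 15 MAP kinase phosphatases and Sprouty feedback genes 0 were called: Dusp5, a nuclear ERK phosphatase, averaged 2069 ± 638 normalised reads in cKO and 1041 ± 412 in WT (log2 fold change 1.01, limma adjusted p = 0.0968), and Spred1 had a log2 fold change of 0.70 (0.141). Dusp5 passed by DESeq2 (adjusted p = 0.0203) and in limma without cKO 1 (adjusted p = 0.0392). Upstream kinases, ligands and receptors had 0 calls among 24, with Braf at a log2 fold change of 0.76 (limma adjusted p = 0.0897) and Mapk3, which encodes ERK1, at -0.45 (0.217). Braf passed by DESeq2 (adjusted p = 0.0204) and in limma without cKO 2 (adjusted p = 0.0320), and Spred1 in limma without cKO 4 (adjusted p = 0.0377).

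The 10 heat shock genes had a median log2 fold change of 0.50 and 0 calls, against 1.32% of all genes tested in limma. The chaperonin gene Hspe1 was at 0.78 (limma adjusted p = 0.112) and Hsph1 at 0.85 (0.162). Hspe1 passed by DESeq2 (adjusted p = 0.0215) and in limma without cKO 4 (adjusted p = 0.0307). The 8 proteins that bind AU-rich elements, the target gene Elavl1 among them, had 0 calls, against the same 1.32%, and a median of -0.03. Hnrnpd was at 0.30 (limma adjusted p = 0.327) and Zfp36l2 at 0.14 (0.616). The share of a list with r above 0.5 to the mean deviation of the 10 genes was 18 of 30 for other early response proteins, 8 of 16 for other early transcription factors, 8 of 15 for phosphatases and Sprouty genes, and 7 of 14 for other AP-1 genes. It was 7 of 24 for upstream kinases and receptors, 4 of 14 for promoter-binding factors, 2 of 10 for heat shock genes and 1 of 8 for AU-rich element binding proteins, beside 18.4% of all genes tested outside the 10.

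The 8 genes most like the 10, by Pearson r of the deviations within genotype over the 10 libraries among 8564 genes with a mean of 100 or more, were Rab11b (0.98), Zfp36 (0.97), Cldn4 (0.97), Trp53bp2 (0.96), Plk3 (0.96), Btg2 (0.96), Fam84a (0.95) and Arrdc1 (0.95). Of those 8564 genes, 322 (3.76%) had r above 0.8 and the median was 0.09. Zfp36, whose protein binds AU-rich elements and speeds mRNA decay, averaged 6641 ± 3631 normalised reads in cKO and 8012 ± 3816 in WT (SD, n = 5 each), with a log2 fold change of -0.32 (limma adjusted p = 0.708). Cldn4, a tight junction gene, averaged 12596 ± 5562 in cKO and 14451 ± 3748 in WT, and Btg2, an antiproliferative early gene, 4283 ± 1919.9 in cKO and 3969 ± 1287 in WT. The 8 had limma adjusted p between 0.185 (Arrdc1) and 0.940 (Btg2), so 0 of 8 passed between the genotypes, against 1.32% of all genes tested.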

How the data were processed

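Per the labels, total RNA of mouse proximal jejunum was sequenced from 5 cKO and 5 WT mice. Per the submitters' processing notes, CASAVA, HISAT2 2.0.5, featureCounts 1.5.0-p3 and DESeq2 1.20.0 were used with build mm10; no source used here gives the strand setting or the annotation release. The authors' deposited signal is a read count over 1 size factor for each library, which the values themselves show: every value was a whole number of reads within 0.001, and these recovered reads served the count tests. The deposited log2 fold changes and p-values of the authors' own comparison are quoted where named, and the deposited gene lengths gave levels per kilobase. Its 2 further columns of per-sample values match no label and were not used.

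Genes with a mean of 10 or more (14062 of 24368, all 10 members among them) were tested on log2(value + 1) with limma 3.58.1 (R 4.3.3, trend and robust options, genotype as the single term), with Benjamini-Hochberg adjustment over all of them and a threshold of 0.05. This scale understates the change of low genes. Alternatives were edgeR 4.0.16 (quasi-likelihood, TMM factors or library totals) and DESeq2 1.42.0 on recovered reads, no filter, a minimum mean of 50, a pseudocount of 4, a replicate block, each library left out in turn, and cKO 3 and cKO 5 left out together. The limma procedure was tested on simulated data. Libraries of one group differed beyond sampling noise, with a lowest chi-square over degrees of freedom of 22.2 between any 2. Depth was 16063987 to 18927440 reads. Intervals are at 95% and are for the difference between the group means, estimated from the spread between libraries. They do not bound single libraries. Likeness is the Pearson r of deviations from the genotype means.

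All 10 members are given; from each other list, genes past the threshold are named (up to 4), otherwise the 2 with the smallest p, and the 8 genes most like the members. Marker genes past the threshold are named too. The members and lists were chosen with earlier results of these data known.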

Additional observations from a re-analysis of the deposited data

How the results depend on the processing

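The number of the 10 genes called was 0 in all 19 alternatives, with a lowest adjusted p of 0.0732. Of all genes, 186 were called, against 750 by DESeq2, 89 in the 8 libraries with shared numbers without a block, 56 without cKO 3 and cKO 5, and 30 to 611 with 1 library left out (fewest without WT 4, most without cKO 4). With edgeR on library totals the median of all genes shifted to 0.14, and that of the 10 genes was -0.05. The log2 fold change of Fos ran from -1.23 to -0.68 with 1 library left out, and that median of the 10 genes from -0.42 to 0.07. Small values changed sign: Atf3 was -0.042 by edgeR with TMM and -0.048 by DESeq2, Nr4a1 0.018 by edgeR on totals and 0.17 without cKO 3 and cKO 5, Fosb 0.12 without those libraries, and Plk3 0.0029. With 1 library left out Fosb ran from -0.46 to 0.31, Atf3 from -0.25 to 0.30, Nr4a1 from -0.44 to 0.11, Ier2 from -0.054 to 0.30, Dusp1 from -0.45 to 0.028 and Btg2 from -0.14 to 0.24. The cause was not tested.

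A replicate block over the 4 shared numbers gave 134 calls, with Fos at -1.08 (limma adjusted p = 0.0906) and Fosb at 0.12, which was also its value without the block in these 8 libraries. Correlations of same-numbered deviations were -0.11 to 0.12, and 0 of 4 numbers matched best with their own. No pairing by number was seen, but 4 numbers are too few to exclude one. With 5 libraries a group and this spread, only the intervals printed bound the genotype differences.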
